A study of Mus musculus with 4 samples.

Results

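The genes of inhibin, activin and anti-Müllerian hormone (AMH) signalling were followed in whole testis. They were the rows of the deposited count table whose symbol equals 1 of 10 names, namely the ligand subunits Inha, Inhba and Inhbb, the ligand Amh, the receptors Amhr2, Acvr1, Acvr1b, Acvr2a and Acvr2b, and the binding protein Fst. All 10 were found, each once, among 25265 genes. RNA of testes from C57BL/6 mice at postnatal day 56 had been depleted of ribosomal RNA and sequenced, with 2 libraries under the label control and 2 under the label Ythdf2-vKO. The series title describes the mutation as specific to germ cells, and YTHDF2 is a cytoplasmic reader of N6-methyladenosine that promotes decay of the RNAs it binds. The labels give neither the driver of the deletion, the deleted segment nor the alleles carried by the controls, and do not tie the libraries to separate animals, so n = 2 counts libraries, and the p-values measure only the spread between these libraries, which may be technical.

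Inhibins and activins are dimers of the same family of subunits. An alpha subunit, encoded by Inha, joined to a beta subunit makes an inhibin, and a pair of beta subunits, encoded by Inhba or Inhbb, makes an activin. Activins bind the type II receptors ACVR2A and ACVR2B, which recruit the type I receptor ACVR1B and lead to phosphorylation of SMAD2 and SMAD3, and inhibins occupy the type II receptors without signalling. In the adult testis, Sertoli cells secrete inhibin B, which lowers the release of follicle-stimulating hormone (FSH) by the pituitary. AMH signals through its own type II receptor, AMHR2, with type I receptors such as ACVR1 and SMAD1, SMAD5 and SMAD9. It is made in quantity by immature Sertoli cells and little by adult ones.

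Total counts per library ran from 24862518 to 29561182. Counts of the targeted gene Ythdf2 were 1193 and 1604 in the control pair against 1774 and 1807 in the 2 others (called vKO-labelled below), so the transcript was not lower under the mutant label (log2 fold change 0.35, SE 0.13, adjusted p 0.238 by the quasi-likelihood test of edgeR, adjusted after Benjamini and Hochberg). Directions below are therefore those of the libraries that carry the mutant label relative to those labelled control. Libraries also differed by transcript GC content, with a Spearman correlation across 15655 genes between GC content and the deviation from the 4-library mean of 0.03 and -0.43 in the control pair against 0.27 and 0.22 under the vKO label. These correlations describe the libraries, since genes are not independent replicates. Sertoli cells are the main source of inhibin and AMH, and the cells that gave the receptor and Fst transcripts were not determined here. All 12 Sertoli markers listed had a log2 fold change above 0, with a median of 0.45. None passed the adjusted threshold and 8 had an unadjusted p under 0.05. Over all 21132 genes tested, 10632 were above 0, 7.65% had an unadjusted p under 0.05 as higher and 14.1% in either direction. The summed level of the 12 Sertoli markers was 1283 and 1369 CPM (counts scaled to each library's size by TMM) in control and 1846 and 1667 CPM in the vKO-labelled libraries, and none of the 12 was at 0 in all libraries. For the 7 Leydig markers the sums were 292 and 354.5 CPM against 458 and 345 CPM, which overlap. Of the 7 genes, 6 were above 0 with a median of 0.36, 3 had an unadjusted p under 0.05 and 4 were higher without overlap. Of all genes tested, 22.7% were higher without overlap and 45.3% did not overlap in either direction. Spermatogonia markers summed to 741 and 596 CPM against 685.9 and 685.8 CPM, which overlap, and the largest part was Dmrtb1. Of those 6 genes, 6 were above 0, with a median of 0.25. At an unadjusted p under 0.05 there were 2, Gfra1 and Kit, each higher, and 3 were higher without overlap. Summed markers of 4 other cell types did not overlap between the groups. The summed endothelial markers were higher under the vKO label. Of those 5 genes, 4 had a log2 fold change above 0 and 1, Pecam1, was below (-0.20). Of the 5, 3 were higher without overlap and 1 had an unadjusted p under 0.05. Erythrocyte markers were at 26.8 and 32.5 CPM against 42.2 and 39.3 CPM, with 3 of 4 tested higher at an unadjusted p under 0.05. Those 3 were Hba-a1, Hbb-bs and Hbb-bt. The largest part of the erythrocyte sum was Alas2, at 17.4 and 22.9 CPM against 22.3 and 26.5 CPM, which overlap. Elongating spermatid markers were at 11696 and 9382 CPM against 9105 and 9310 CPM, with 3 of 7 lower at an unadjusted p under 0.05. Rete testis markers were at 18.7 and 18.5 CPM against 15.3 and 15.4 CPM. The largest part of the rete testis sum was Krt8, with a log2 fold change of -0.56. Of the 3 rete testis genes tested, Krt8 was the 1 lower without overlap. Krt18 (-0.15), Esr1 (0.32) and Aqp1, which was not tested, overlapped. The part of these cell types in the members' values was not tested. Fewer cells of a type and less RNA per cell cannot be told apart in such bulk samples.

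Amhr2 was the member with the most transcript and the one whose difference came nearest to a call. Amhr2 and Nr5a1, the gene of the nuclear receptor SF-1, had adjusted p values of 0.0734 and 0.0769 by edgeR's quasi-likelihood test. Neither passed the adjusted threshold. The sequence below was chosen after these values were seen, and a link between SF-1 and the Amhr2 level was not tested. The bases ahead of the Amhr2 start site are shown, with the match to the SF-1 motif AAGGTCA in capitals. They lie on the plus strand at chr15:102445117-102445366 of GRCm38.p6, from RefSeq, and end just before the start site, which RefSeq and the GENCODE M21 annotation place at the same base.

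Amhr2: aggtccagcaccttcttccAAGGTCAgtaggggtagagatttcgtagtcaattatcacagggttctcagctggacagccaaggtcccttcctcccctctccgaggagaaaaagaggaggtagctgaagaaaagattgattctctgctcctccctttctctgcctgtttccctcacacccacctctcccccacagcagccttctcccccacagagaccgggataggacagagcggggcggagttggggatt

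The match runs from -231 to -225 relative to the start site, on the gene's strand. A total of 4 short motifs was searched for on both strands of the 250 bases before each RefSeq start: AAGGTCA for SF-1, AGATAA for GATA factors, AACAAT for SOX factors and TGACGT, the core of a cAMP response element. Of 32851 such windows, 4.08% held AAGGTCA, 9.99% AGATAA, 9.42% AACAAT and 6.47% TGACGT. Promoter windows were found for 8 of the 10 members, without Amh and Fst, and the Amhr2 match was the only one among those 8. For Inha and Acvr1 the RefSeq start lay 532 and 329 nt inside the gene as annotated by GENCODE M21. The bases ahead of the M21 starts of these genes were therefore not searched, and the lack of a match says nothing about them. A match of this kind is a description of letters and not a binding site.

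None of the members passed an adjusted p of 0.05. Inhba had too few counts for the test, and of the 9 members tested 0 were called in either direction by edgeR's quasi-likelihood test, against 0.393% of the 21132 genes tested. At an unadjusted p under 0.05 there were 3 members, Amh, Amhr2 and Fst, each higher under the vKO label, where 14.1% of all genes tested passed that threshold in either direction and 7.65% passed it as higher. A DESeq2 Wald test on the same counts called 1 member, Amhr2, as higher, against 0.833% called higher and 1.32% called in either direction of the 16448 genes that DESeq2 gave an adjusted p; the shares in the authors' deposited table were the same. Of the 9, 8 had a log2 fold change above 0, with a median of 0.44 against 0.00265 over all genes tested. The groups did not overlap in 5 members, all higher in the vKO-labelled libraries, where 22.7% of all genes tested were higher without overlap and 22.6% lower, 45.3% together. The remaining 4 tested members overlapped. The members thus fell into a group with little difference (Inha, Inhbb, Acvr1b, Acvr2a) and a group with higher values under the mutant label (Amh, Amhr2, Acvr1, Acvr2b, Fst), a division made after the values were seen.

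**Figure D1:**
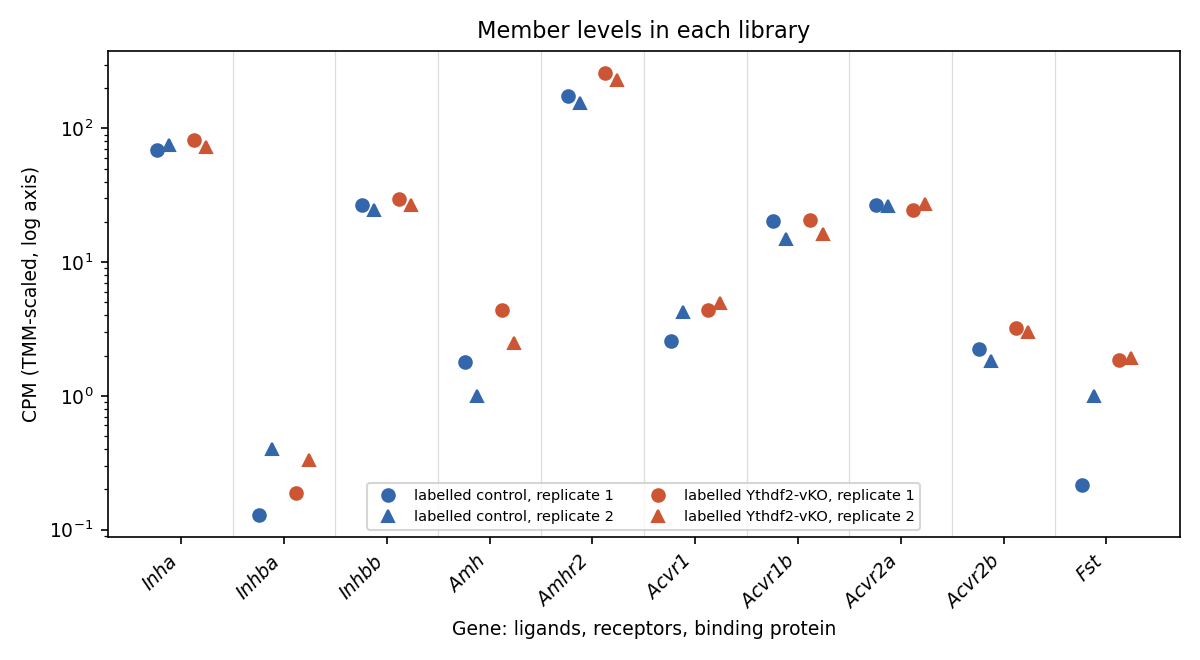
Level of each of the 10 genes in each library, in TMM-scaled CPM on a log axis, with circles for replicate 1, triangles for replicate 2, blue for control and orange for the libraries labelled Ythdf2-vKO. Amhr2 lies between 155 and 260.4 CPM and Inhba at or under 0.4 CPM, and the orange points lie above both blue points for Amh, Amhr2, Acvr1, Acvr2b and Fst.

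Among the ligands, the inhibin alpha subunit was the most abundant transcript and was nearly level between the groups. Inha (ENSMUSG00000032968, chromosome 1, 75507077 to 75510366 on the plus strand of GRCm38) was at 1604 and 2252 counts in the control pair against 2179 and 1967 under the vKO label, or 68.6 and 75.1 CPM against 81.4 and 72.9 CPM. The values of the groups overlapped. The means were 71.9 ± 4.59 and 77.2 ± 6.00 CPM (SD, n = 2 each), and the log2 fold change was 0.10 (SE 0.13, adjusted p 0.790 by edgeR).

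The beta B subunit behaved alike in size. Inhbb (ENSMUSG00000037035, chromosome 1, 119415465 to 119422248, minus strand) was at 628 and 737 counts in the control pair against 800 and 719 under the vKO label, or 26.9 and 24.6 CPM against 29.9 and 26.7 CPM. Control replicate 1 lay just above the lower vKO-labelled library, so the groups overlapped. The log2 fold change was 0.14 (SE 0.14, adjusted p 0.733 by edgeR). Both Inha and Inhbb are rich in GC, with 59.7% and 60.9% in their longest transcripts against a median of 48.9% over the genes tested. With an offset for GC content their log2 fold changes became -0.12 and -0.10, still short of a call, so that neither has a direction here.

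Inhba, the beta A subunit of inhibin A and activin A, was barely detected. Inhba (ENSMUSG00000041324, chromosome 13) was at 3 and 12 counts in the control pair against 5 and 9 under the vKO label, or 0.264 ± 0.192 and 0.260 ± 0.104 CPM (SD, n = 2), and was left out by the filter on low counts. Control replicate 1 was at the floor of 3 counts, and a difference would not have been detectable at this depth. Fitted without the filter, its log2 fold change was -0.06 with an SE of 0.84. The annotated gene B230303A05Rik overlaps Inhba by 11573 nt on the opposite strand, with 32 to 44 counts per library, and the use of strand in the counting is not given in the sources used here.

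Per kilobase of exon, which allows genes to be compared, Inha stood at 48.7 CPM per kb in control, Inhbb at 6.05 and Inhba at 0.0414. The Inha level per kb was 7.37 and 8.81 times that of Inhbb in the control libraries and 7.86 and 7.89 times in the vKO-labelled libraries, so the proportion of alpha to beta B transcript lay in the same range in both groups. Inhbb per kb exceeded Inhba per kb by 92.2 to 314.4 times in single libraries. By level, the transcripts of the inhibin B subunits thus exceeded that of the beta A subunit in every library.

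Amh was low and was higher in both vKO-labelled libraries. AMH is the ligand of AMHR2, and Amh (ENSMUSG00000035262, chromosome 10, 80805243 to 80807648, plus strand) was at 42 and 30 counts in the control pair against 117 and 67 under the vKO label. That is 1.80 and 1.001 CPM against 4.37 and 2.48 CPM. The groups did not overlap, and vKO-labelled replicate 1 was well above replicate 2. The means were 1.40 ± 0.563 and 3.43 ± 1.33 CPM (SD, n = 2), a log2 fold change of 1.31 (SE 0.38, fitted fold 2.48), with an unadjusted p of 0.00469 and an adjusted p of 0.163 in edgeR, which did not pass. Of all genes tested, 99.0% had a lower log2 fold change. Amh had the highest GC content of the members, 65.4%, above 99.5% of the genes tested, and with the GC offset its log2 fold change was 1.03 (adjusted p 0.202 by edgeR). Leaving out vKO-labelled replicate 1 lowered it to 0.84, and leaving out control replicate 1 gave 1.76.

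Of the receptors, Amhr2 was the highest member in all 4 libraries, per library and per kb. AMHR2 is the type II receptor that is particular to AMH and is known from Sertoli and Leydig cells. Amhr2 (ENSMUSG00000023047, chromosome 15, 102445367 to 102454633, plus strand) was at 4064 and 4659 counts in the control pair against 6970 and 6212 under the vKO label, or 174 and 155 CPM against 260.4 and 230.3 CPM. Both vKO-labelled libraries lay above both controls, and the gap between the groups was wider than the gap within either. The means were 165 ± 13.1 and 245 ± 21.3 CPM (SD, n = 2), a log2 fold change of 0.58 (SE 0.13, fitted fold 1.49), with an unadjusted p of 0.000517. The adjusted p was 0.0734 in edgeR's quasi-likelihood test, which did not pass.

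That value lay close to the threshold, and the way of testing decided on which side. In the authors' deposited table the log2 fold change of Amhr2 was 0.57 (SE 0.15) with an adjusted p of 0.0135, and the DESeq2 Wald test computed here from the counts gave the same adjusted p. Scaling by library totals alone gave 0.64 with an adjusted p of 0.0137, under which 1.03% of all genes tested were called and 0.857% were called higher. The GC offset moved it the other way, to 0.38 with an adjusted p of 0.167 by edgeR. The longest Amhr2 transcript has 58.8% GC, above 93.7% of the genes tested. Every library that was left out in turn kept a positive value, from 0.48 without vKO-labelled replicate 1 to 0.66 without vKO-labelled replicate 2. Without control replicate 1 or control replicate 2 the adjusted p was 2.51e-05 or 0.00293 by edgeR, and without vKO-labelled replicate 1 it was 0.645. Those first 2 fits called 6.82% and 4.93% of the genes they tested, 4.72% and 2.53% as higher. With the replicate number as a block, Amhr2 (adjusted p 0.00145 by edgeR), Amh (0.0150) and Fst (0.0351) were called, against 4.81% of all genes called and 2.97% called higher. With the GC offset added to the block, where the shares were 2.78% and 1.25%, Amhr2 had an adjusted p of 0.0608 by edgeR and no member was called.

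The other receptors were less abundant. Acvr2a (ENSMUSG00000052155, chromosome 2), a type II receptor of activin, was at 26.8 and 26.5 CPM in the control pair against 24.5 and 27.2 CPM under the vKO label. Its values overlapped, and the log2 fold change was -0.04 (SE 0.14, adjusted p 0.939 by edgeR), and the sign changed under the GC offset and under scaling by library totals alone. Acvr2a overlaps Orc4 by 446 nt on the opposite strand. Acvr2b (ENSMUSG00000061393, chromosome 9), the other type II receptor of activin, was at 52 and 55 counts in the control pair against 86 and 81 under the vKO label, or 2.22 and 1.83 CPM against 3.21 and 3.002 CPM. The groups did not overlap and the replicates lay close together. The log2 fold change was 0.62 (SE 0.29), with an unadjusted p of 0.0549 and an adjusted p of 0.367 in edgeR.

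The proportion of the pair differed between the libraries. Per kb, Acvr2a was 8.32 and 9.96 times Acvr2b in control and 5.27 and 6.27 times in the vKO-labelled libraries, which did not overlap. Likewise Amhr2 per kb was 1.86 and 1.52 times Inha in control and 2.35 and 2.32 times in the vKO-labelled libraries. Amhr2 per kb was 80.6 and 129 times that of its ligand Amh in control, and 49.6 and 77.2 times with the vKO label, so this ratio was lower without overlap where Amhr2 over Inha was higher. These 3 were the ratios without overlap among 7 computed, they were read without a test, and an exact permutation test of 2 libraries against 2 cannot give a two-sided p under 0.333.

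Acvr1b (ENSMUSG00000000532, chromosome 15), the type I receptor of activin also called ALK4, was at 20.3 and 14.9 CPM in the control pair against 20.6 and 16.1 CPM under the vKO label. Replicates differed more than groups, and the log2 fold change was 0.07 (SE 0.19, adjusted p 0.923 by edgeR). Acvr1 (ENSMUSG00000026836, chromosome 2), the type I receptor also called ALK2, was at 60 and 127 counts in the control pair against 117 and 134 under the vKO label, or 2.57 and 4.24 CPM against 4.37 and 4.97 CPM. Control replicate 2 lay just under the vKO-labelled libraries, and control replicate 1 alone stood apart. The log2 fold change was 0.44 (SE 0.28, adjusted p 0.519 by edgeR), and 0.13 without control replicate 1.

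Fst encodes follistatin, which binds activins and keeps them from their receptors. Fst (ENSMUSG00000021765, chromosome 13, 114452290 to 114458951, minus strand) was at 5 and 30 counts in the control pair against 50 and 52 under the vKO label, or 0.214 and 1.001 CPM against 1.87 and 1.93 CPM. The vKO-labelled libraries were nearly equal, whereas the controls differed widely from each other. Fst had the highest log2 fold change of the members, 1.58 (SE 0.54), with an unadjusted p of 0.0125 and an adjusted p of 0.223 in edgeR. Without control replicate 1 the log2 fold change was 0.91 and without control replicate 2 it was 3.12, so the size rests on a control library with 5 counts. The authors' deposited table gave a log2 fold change of 1.61 (SE 0.66) and no adjusted p.

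The order of the members by level per kb was the same in both groups. From the top it ran Amhr2, Inha, Inhbb, Acvr2a, Acvr1b, Amh, Acvr1, Acvr2b, Fst and Inhba. Amhr2 stood at 82.1 CPM per kb in control and 122 in the vKO-labelled libraries, and Inha at 48.7 and 52.3, with no overlap between the pair in any library. Inhbb (5.78 to 7.02 CPM per kb over the 4 libraries) also lay above Acvr2a (4.31 to 4.79). Acvr1b, at 3.37 to 4.67 CPM per kb, overlapped Acvr2a. Amh (0.599 to 2.62), Acvr1 (0.532 to 1.03) and Acvr2b (0.467 to 0.818) overlapped each other and have no settled order. Fst lay under them at 0.0466 to 0.420 CPM per kb, and overlapped Inhba at 0.0201 to 0.0626.

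Since Sertoli cells are the main source of inhibin and AMH and their markers were higher under the mutant label, each member was also set against those markers within its library. For the receptors and Fst, whose cells of origin were not determined here, this reference may not apply. The geometric mean of the 12 markers was 31.8 and 34.4 CPM in the control pair against 44.4 and 43.0 CPM under the vKO label, a mean log2 difference of 0.40. Relative to it, Inha was lower in both vKO-labelled libraries than in either control, by a mean log2 difference of -0.30, and so were Inhbb (-0.27) and Acvr2a (-0.44). Of all genes tested, 61.2% were lower in this way without overlap, so this describes those members without setting them apart.

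Amh and Fst were higher on this scale too. The mean log2 difference relative to the markers was 0.90 for Amh and 1.64 for Fst, both without overlap between the groups, and 4.5% of all genes tested were higher in this way. Without 1 library these values ran from 0.42 to 1.37 for Amh, lowest without control replicate 2 and highest without control replicate 1, and from 0.58 without control replicate 1 to 2.69 without control replicate 2 for Fst. For Amhr2 the mean log2 difference was 0.57 in CPM and 0.17 relative to the markers, where its groups overlapped, and the latter ran from 0.04 to 0.31 without 1 library. Acvr2b (0.22), Acvr1 (0.10), Acvr1b (-0.33) and Inhba (-0.26) overlapped as well, and Acvr1 (-0.21 to 0.40) and Inhba (-1.03 to 0.50) took both signs without 1 library. No test was made of these relative levels.

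**Figure D2:**
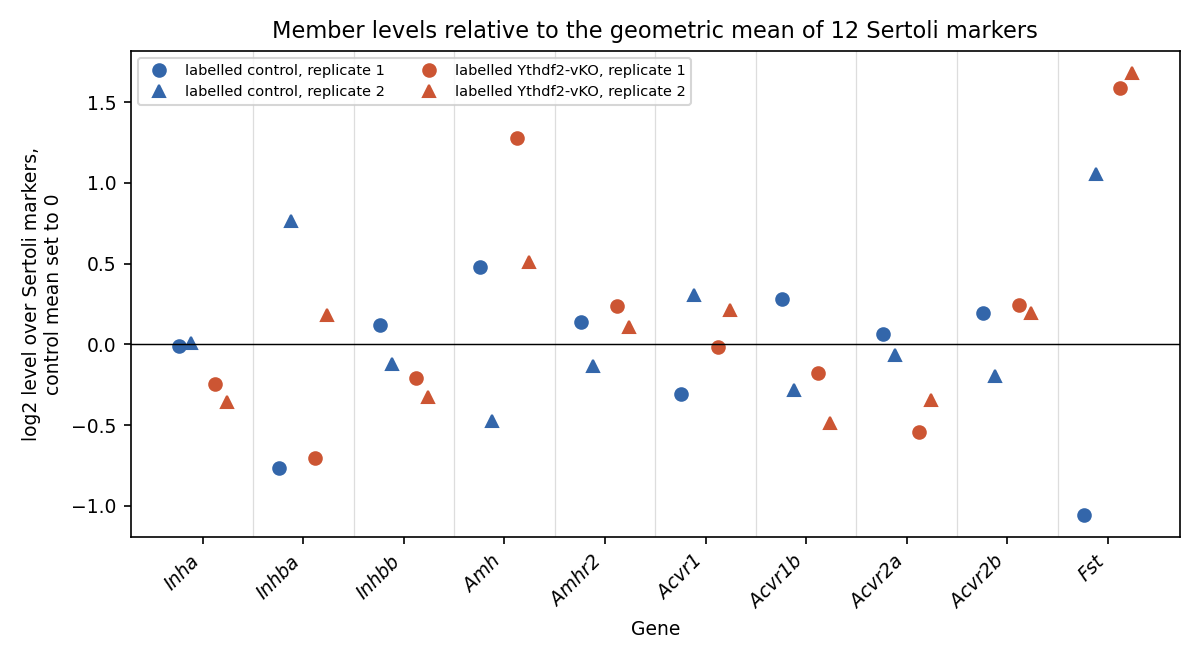
Log2 level of each of the 10 genes over the geometric mean of 12 Sertoli markers in the same library, with the control mean of each gene set to 0 and symbols by library (blue control, orange labelled Ythdf2-vKO). Orange points lie under both blue points for Inha, Inhbb and Acvr2a and above both for Amh and Fst, and the Amhr2 points overlap.

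Beyond the members, a list of 47 other genes held genes of the pathway and 10 regulators in Sertoli cells. Of the 47, 37 were tested. Of these 1 was called higher and 0 lower, against 0.279% and 0.114% of all genes tested, and 9 had an unadjusted p under 0.05, all higher, where 7.65% of all genes tested were higher at that threshold. Their median log2 fold change was 0.21 against 0.00265 over all genes tested, with 30 above 0 and 7 below, where 10632 of 21132 were above 0. The 10 Sertoli cell regulators, all tested, held the 1 called gene, 5 of the 9 and 10 of the 30. The pooled figures are thus not those of the signalling pathway alone.

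Among genes known to regulate Inha and Amh transcription or the FSH response in Sertoli cells, 10 of 10 had a log2 fold change above 0, with a median of 0.36. The called gene was Wt1, a transcription factor of Sertoli cells that activates AMH-pathway genes, which rose by 0.71 on the log2 scale (SE 0.13, adjusted p 0.0418 by edgeR), from 31.3 and 32.8 CPM to 54.2 and 50.7 CPM. Without robust estimation of the spread, where 0.308% of all genes tested were called and 0.237% as higher, it was no longer called, nor was it when either vKO-labelled library was left out. Nr5a1, the gene of SF-1, which acts on Amh and Inha, was at 25.5 and 26.0 CPM in the control pair against 41.0 and 38.1 CPM under the vKO label, without overlap (log2 fold change 0.62, SE 0.14, adjusted p 0.0769 by edgeR and 0.0276 by DESeq2). Sox8 (0.49), Gata1 (0.48) and Sox9 (0.44) had unadjusted p values of 0.0087, 0.0176 and 0.0116, and Sox9 and Gata1 are also among the Sertoli markers.

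Differences among the transducers were smaller. Of 13 SMADs and SMAD regulators, 9 had a log2 fold change above 0 and 0 were called, against 0.393% of all genes tested. At an unadjusted p under 0.05 there were 2, each higher. That threshold was passed by 14.1% of all genes tested in either direction and by 7.65% as higher. Without overlap, 6 of the 13 were higher and 4 lower, against 22.7% and 22.6% of all genes tested. Smad3, which carries the activin signal, was at 5.69 and 6.80 CPM in the control pair against 10.01 and 7.90 CPM under the vKO label (log2 fold change 0.52, SE 0.21, adjusted p 0.294 by edgeR). Ski, a corepressor of SMAD signalling, had a value of 0.44 on the same scale (SE 0.18, adjusted p 0.281 by edgeR). Smad9, which serves AMH and bone morphogenetic proteins, had the lowest value of the group, -0.40 (SE 0.38).

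Of the related ligands, 4 of 10 were tested and 0 were called. Tgfb1, a ligand of the same superfamily, was at 6.29 and 6.20 CPM in the control pair against 10.8 and 12.1 CPM under the vKO label, without overlap, for a log2 fold change of 0.88 (SE 0.19) and an adjusted p of 0.0696 by edgeR and 0.0307 by DESeq2. Gdf9, known as an oocyte growth factor that is also transcribed in male germ cells, had 178 counts in control replicate 1 and 17 in control replicate 2, against 26 and 19 in the vKO-labelled libraries. Its log2 fold change of -2.25 (SE 1.49, adjusted p 0.629 by edgeR) was -3.18 without control replicate 2, and so rests on control replicate 1.

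Of the co-receptors and binding proteins, 4 of 7 were tested and 0 were called. Chrd, which encodes the bone morphogenetic protein antagonist chordin, had a log2 fold change of 0.84 (SE 0.37, unadjusted p 0.0433, adjusted p 0.335 by edgeR). Fstl3, a relative of follistatin that also binds activin, had one of 0.16 (SE 0.18). Of the other receptors, 6 of 7 were tested and 0 were called, from -0.03 for Tgfbr1, the type I receptor of TGF-beta, to 0.68 (SE 0.36) for Acvrl1, a type I receptor of endothelial cells, among those with a mean of at least 1 CPM. The summed level of the 5 endothelial markers was 7.66 and 9.17 CPM in the control pair against 11.6 and 13.2 CPM under the vKO label, and its part in the Acvrl1 value was not tested.

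**Figure D3:**
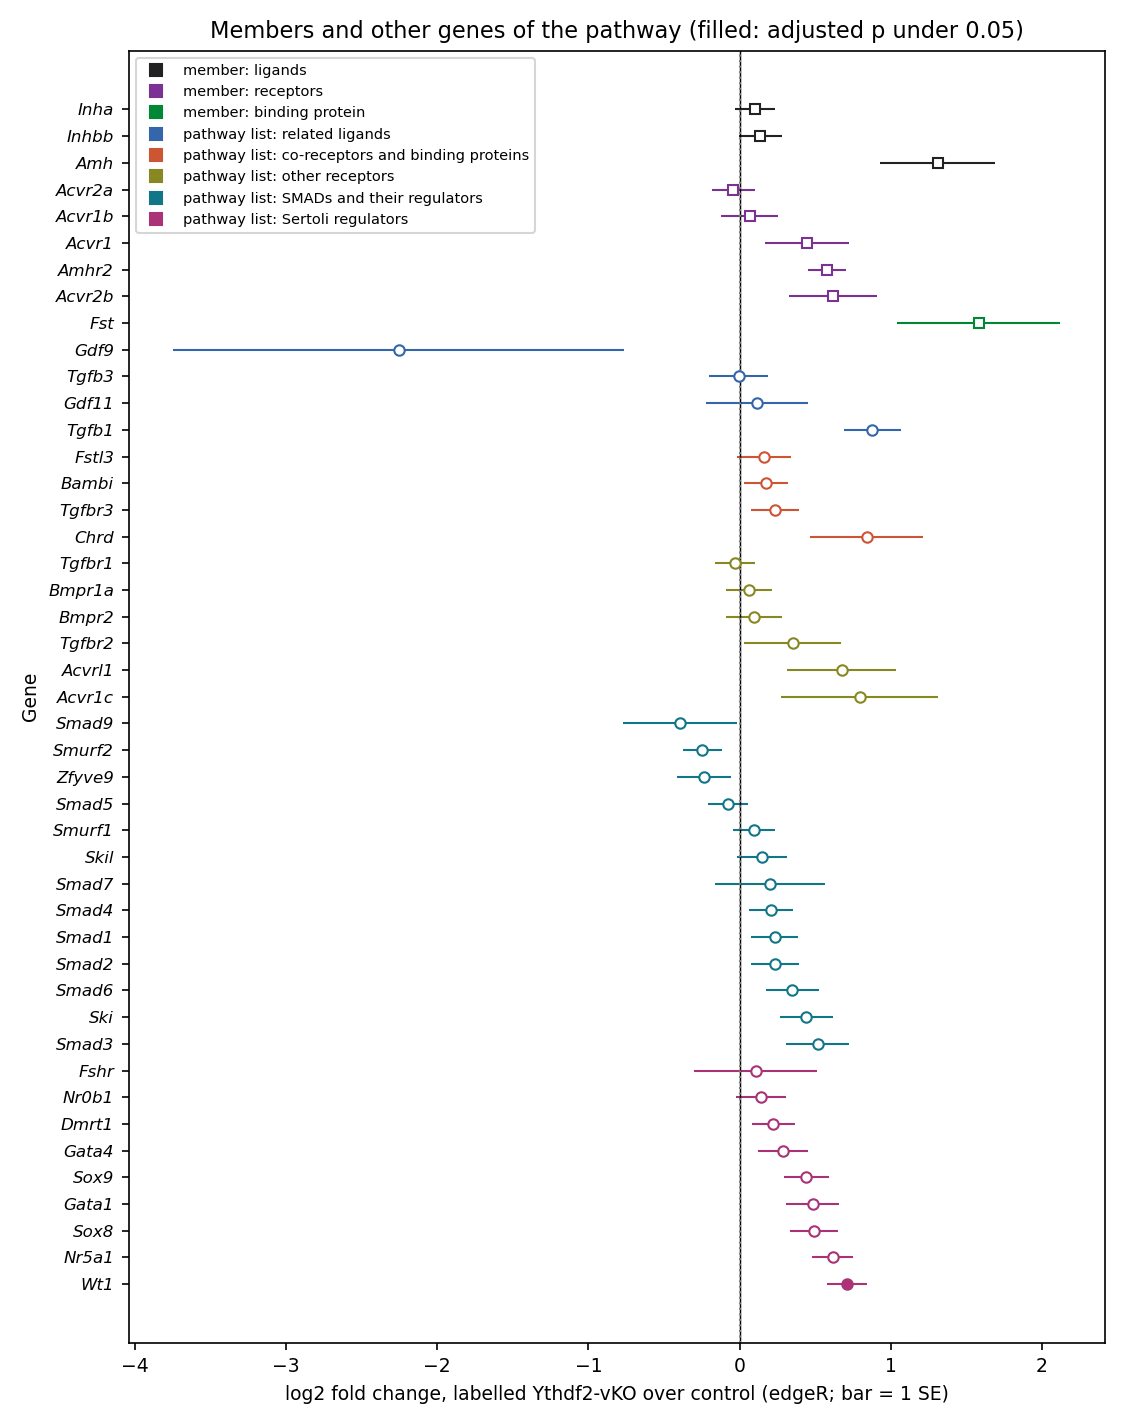
Log2 fold change of the libraries labelled Ythdf2-vKO over control for the 9 members (squares) and the other pathway genes (circles) that were tested, without 1 of the 37, coloured by role, with bars of 1 SE and filled symbols for an adjusted p under 0.05. Wt1 is the filled symbol, at 0.71, and Gdf9 lies apart at -2.25 with a wide bar.

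The sign held across settings for the members with the higher values. Those members had been grouped by lying above both controls in these same 4 libraries, so this is a description and adds no support. Under the 10 other fits that used all 4 libraries, the log2 fold change of Amhr2 stayed between 0.38 and 0.64, that of Amh between 1.01 and 1.38, that of Acvr2b between 0.51 and 0.69 and that of Acvr1 between 0.44 and 0.50, and Fst stayed between 1.49 and 1.81 in the 9 that could test it. Inha, Inhbb, Acvr1b and Acvr2a each took both signs.

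**Figure D4:**
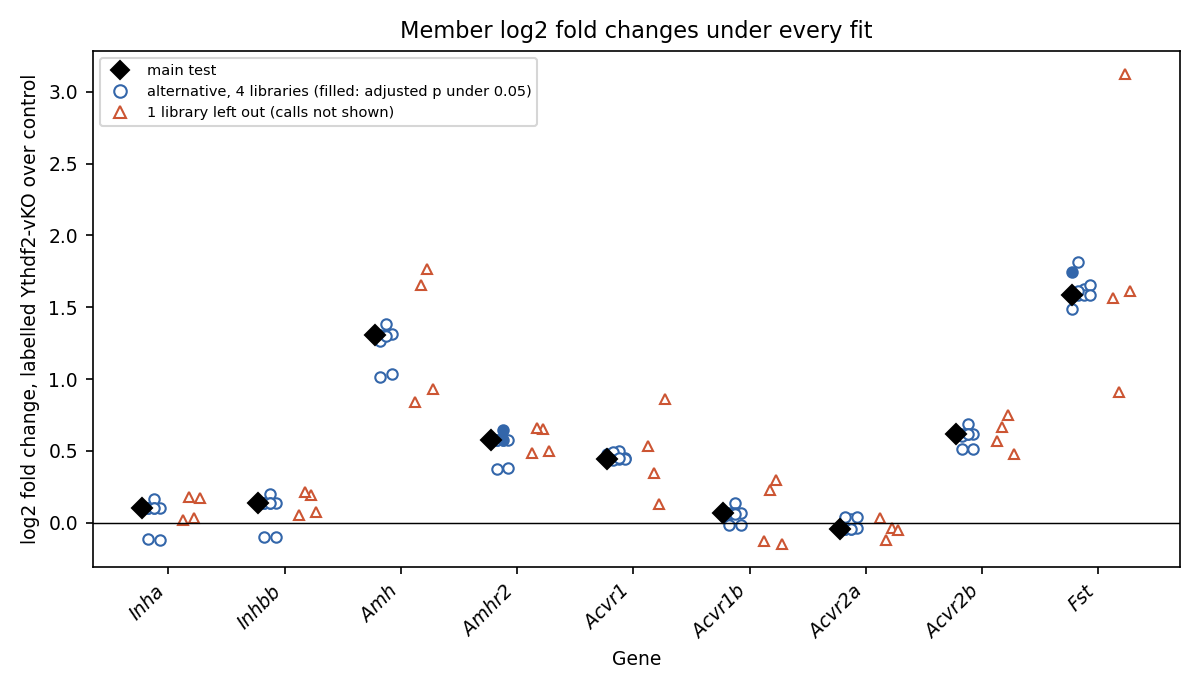
Log2 fold change of each of the 9 tested members under the main test (black diamond), the alternatives that used all 4 libraries (blue circles, filled for an adjusted p under 0.05) and the fits without 1 library (orange triangles). Amhr2 stays between 0.38 and 0.66, Fst spreads from 0.91 to 3.12, and Inha, Inhbb, Acvr1b and Acvr2a lie around 0.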

How the data were processed

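Testis RNA from 4 libraries was analysed from 1 deposited table. Per the file headers, the authors deposited raw counts for each gene, the mean normalized signal, the log2 fold change of their comparison, its SE, a Wald score, and p-values before and after adjustment; these headers are those of DESeq2. The submitters' processing notes name HISAT2 2.1.0 and HTSeq 0.6.1p1. The genome build and the use of strand are not given in the sources used here. Recomputing the authors' mean from the counts differed by at most 4.93e-10 of its value. Every gene listed has at least 10 counts summed over the 4 libraries, and rarer genes are not analysed here.

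Counts were tested with edgeR 4.0.16 (limma 3.58.1, R 4.3.3): TMM scaling, low genes removed by filterByExpr, a robust quasi-likelihood fit with group as the term and Benjamini-Hochberg adjustment over 21132 genes, with calls at 0.05. The test was checked on simulated data. SE is the absolute log2 fold change over the square root of F, with a prior count of 0.125. Coordinates, exon lengths and GC content are from GENCODE M21 (GRCm38), in which 25241 identifiers were found, and the authors' build may differ. Replicates of a group differed by more than sampling noise (chi-square per degree of freedom 21.17 and 8.415), so none were merged. The table gives raw reads without molecular identifiers, so the floor of 3 counts covers counting error only.

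Named genes were all members, Ythdf2, each gene of the pathway list with an unadjusted p under 0.05, and the largest and smallest log2 fold change in each of its 5 groups among genes with a mean of at least 1 CPM. Of these, 1 pathway gene is not reported here and counts only in the totals of its list. Members and lists were chosen with earlier results of these data known. Alternatives were DESeq2 size factors, library totals alone, an offset for GC content (loess per library, span 0.5), the replicate number as a block, other filters, non-robust estimation, the Wald test of DESeq2 1.42.0, a prior count of 2, a threshold of 0.01, and leaving out each library.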

Additional observations from a re-analysis of the deposited data

How the results depend on the processing

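Over all genes, the 59 higher and 24 lower calls became 181 and 37 with library totals alone, 137 and 80 with the DESeq2 Wald test, 8 and 2 at an adjusted p under 0.01, 79 and 66 with the GC offset, 50 and 15 without robust estimation, and ran from 30 to 1048 higher and 5 to 523 lower when 1 library was left out. Higher calls made up 71.1% of the total, 83.0% with library totals alone, 63.1% with DESeq2 and 54.5% with the GC offset. With library totals alone the median over all genes, on the log2 scale, was 0.067. Members called higher, 0 in the main test, were 1 with library totals alone and 1 with DESeq2 (Amhr2 in both, at log2 fold changes of 0.64 and 0.57), and 0 to 2 without 1 library; none was called lower. Pathway genes called higher, 1 in the main test, were 3 with library totals alone and with DESeq2, 0 without robust estimation and at the 0.01 threshold, and 0 to 4 without 1 library, with 0 to 1 lower. Fits without 1 library leave a lone library in a group, which is assumed to vary like the others. The log2 fold change of Amhr2 then ran from 0.48 to 0.66, the median of the members from 0.30 to 0.48, and their median relative to the Sertoli markers, -0.08 in the main setting, from -0.10 to 0.14.

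The log2 fold changes of 4 members, none called, changed sign: with the GC offset for Inha (-0.12), Inhbb (-0.10), Acvr1b (-0.0179) and Acvr2a (0.0436), with library totals alone for Acvr2a (0.0251), without control replicate 2 for Acvr1b (-0.15), and without vKO-labelled replicate 1 for Acvr1b (-0.12) and Acvr2a (0.0339). The 0.01 threshold must pass fewer genes. For all else the cause was not tested. With at least 10 counts in every library Fst could not be tested, because control replicate 1 held 5.

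Both groups have replicates 1 and 2, with no label on what a number marks. The deviations of libraries with equal numbers had a correlation of 0.139, and with 2 pairs this was not taken as pairing. The replicate block gave 627 higher and 390 lower calls over all genes, 3 members were called higher (Amhr2 at 0.57, Amh at 1.29 and Fst at 1.75) and 3 pathway genes. Under the replicate block joined to a GC offset, 265 genes were higher and 322 lower, no member was called (the signs of Inha at -0.11, Inhbb at -0.10, Acvr1b at -0.0176 and Acvr2a at 0.0437 changed) and 2 pathway genes were called higher. At 1.001 to 4.37 CPM for Amh and 0.214 to 1.93 CPM for Fst, depth limits both.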
